A study of Capra hircus with 20 samples.

Results

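The genes described here are 10 genes that are widely used to recognise astrocytes, among the 21071 genes with deposited expression values. They were chosen by symbol, with earlier results of these data known, and the rule uses no measured value. GFAP, AQP4, ALDH1L1, SLC1A2, SLC1A3, GJA1, S100B, GLUL, ALDOC and SOX9 were each matched to 1 gene identifier of the goat annotation, and 10 of 10 passed the filter on low values. RNA was sequenced from the hypothalamus of 20 female Jining grey goats that had the same feeding and management. The goats were 1 day old (D1), 60 days (M2), 120 days (M4) and 180 days (M6), with 5 goats at each stage and 1 library per goat. The groups were formed by age, and body weight rose with age in their description. No treatment, transgene or mutation is described. The question put to these genes is whether their RNA level differs between the stages from birth to sexual maturity.

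Astrocytes are the glial cells that take up glutamate and potassium around synapses, regulate water at the blood vessels and supply neurons with glutamine and lactate. In the hypothalamus they also surround the neurons that release gonadotropin-releasing hormone. Each of the 10 genes marks astrocytes in brain tissue, but several are also transcribed elsewhere. S100B and GLUL are known from oligodendrocytes, and SLC1A3 and GFAP from radial glia and tanycytes, the cells that line the third ventricle.

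The values are FPKM, the fragments of a gene scaled by the length of its exons and by the mapped fragments of its library, so that levels of different genes can be compared. The sum of FPKM in a library ran from 260199 to 377479. The deposited values carry no read counts, so no counting error is given for a gene, and the SD between goats is the only error given. The tissue label was checked against 16 marker genes of the hypothalamus. In 4 libraries none of them reached 5 FPKM, and in 4 others 1 did, while the most in a library was 7. OXT, AVP, PMCH, HCRT and TRH, which encode hypothalamic peptides, were all under 5 FPKM in 12 of the 20 libraries. NEUROD6, a transcription factor of cortical neurons, reached 23.7 FPKM in M4 replicate 1, and TCF7L2, which is abundant in the thalamus, reached 86.3 FPKM in M4 replicate 2. Markers of the pituitary summed to at most 1.65 FPKM. The part that these differences in tissue had in the values below was not tested. In bulk tissue, fewer astrocytes and less RNA per astrocyte cannot be told apart.

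All 10 genes were transcribed in every library, over a range from 6.198 to 1701 FPKM in their means. GFAP had a mean of 1701 ± 892 FPKM (SD, n = 20) and S100B had 1527 ± 463 FPKM. GLUL followed at 555 ± 167 FPKM. Then came AQP4 (264), ALDOC (242), SLC1A3 (222), GJA1 (194) and SLC1A2 (132 FPKM). SOX9 and ALDH1L1 were the lowest, at 14.2 ± 6.01 and 6.198 ± 2.96 FPKM. The 9 neighbours in this order were compared within libraries on the log2 scale by a paired permutation test, two-sided, with Benjamini-Hochberg adjustment over the 9. The step from S100B to GLUL was present in 20 of 20 libraries and the step from SLC1A2 to SOX9 in 20 of 20 libraries (adjusted p = 6e-05 for each). GLUL was above AQP4 in 19 libraries (adjusted p = 6e-05), SOX9 above ALDH1L1 in 18 and GJA1 above SLC1A2 in 16 (adjusted p = 0.011 for both). GFAP and S100B did not differ beyond their spread (GFAP higher in 10 of 20 libraries, adjusted p = 0.886). The same held for AQP4 and ALDOC (adjusted p = 0.676), ALDOC and SLC1A3 (adjusted p = 0.222) and SLC1A3 and GJA1 (adjusted p = 0.689). The 10 genes together made up 0.868% to 2.08% of the summed FPKM of a library.

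**Figure D1:**
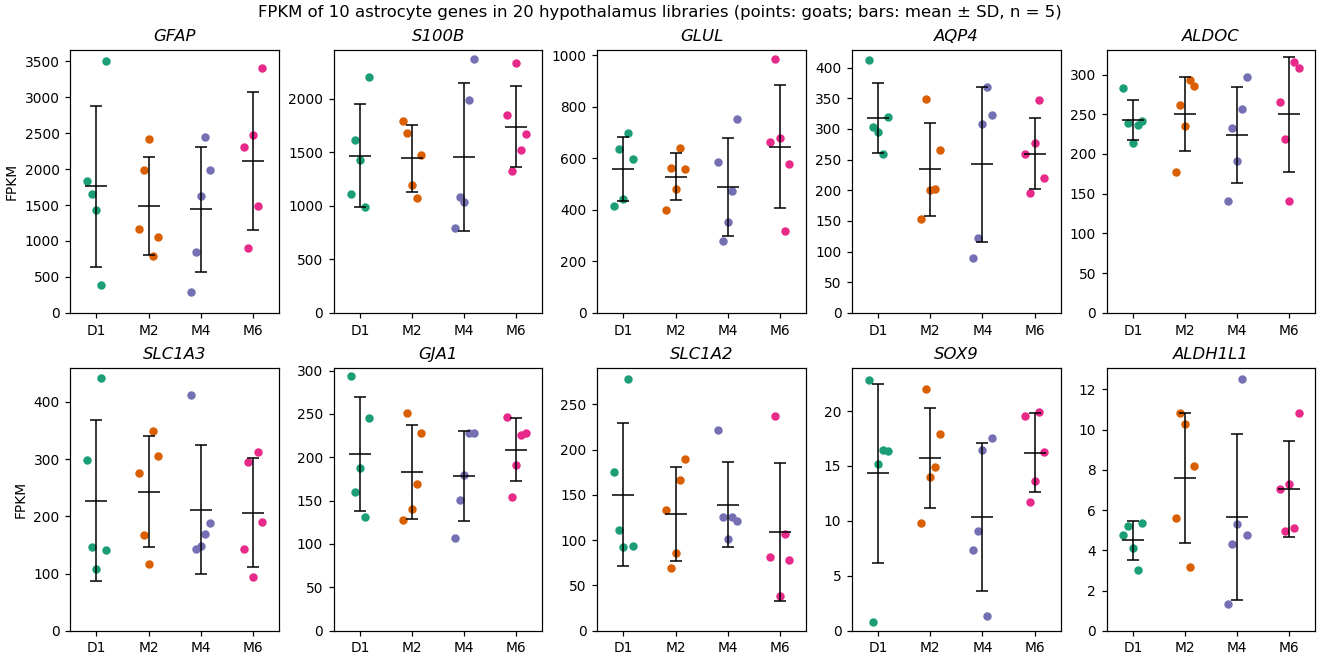
FPKM of each of the 10 genes (y axes, linear and from 0, with a scale of their own) at the 4 stages D1, M2, M4 and M6 (x axes). Points are the 5 goats of a stage, and black bars are the mean ± SD. The 4 stages overlap for each of the 10 genes, and SOX9 has a single low goat at D1 (0.795 FPKM) and at M4 (1.35 FPKM).

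GFAP (gene 102190069, chromosome 19, 44249431 to 44258886 of ARS1.2) encodes the intermediate filament of astrocytes. Its FPKM in replicates 1 to 5 was 1840.4, 1658, 1425, 380.4 and 3500.4 at D1, and 1169, 1993, 2416, 792 and 1055 at M2. At M4 it was 296, 849, 1620.2, 2454 and 1984, and at M6 2308, 908, 2469.6, 1491 and 3413. The highest and the lowest goat at D1 were 9.20-fold apart, and at M4 8.28-fold, so that the means of the stages lay well inside the range of single goats. The means were 1761 ± 1125 (SD, n = 5) FPKM at D1, 1485 ± 687 FPKM at M2, 1441 ± 868 FPKM at M4 and 2118 ± 961 FPKM at M6. The mean of M2, M4 and M6 minus D1 was 0.023 (SE = 0.50, 95% interval -1.02 to 1.06) on the scale of log2(FPKM + 0.1). Of the 6 pairs of stages, the smallest p was that of M6 vs. M4, with a log2 fold change of 0.75 (SE = 0.61, 95% interval -0.53 to 2.02, limma adjusted p = 0.832). It was -0.05 without M4 replicates 1 and 2, which had the lowest GFAP of their stage (296 and 849 FPKM). These libraries were chosen after seeing the data, and the cause of the change was not tested.

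S100B (gene 102169524, chromosome 1, 146236243 to 146243445) encodes a calcium-binding protein of astrocytes and of some oligodendrocytes. It had 1112, 1615, 1431, 989 and 2202 FPKM at D1 and 1792, 1685, 1193, 1070.5 and 1473 FPKM at M2. The M4 goats had 792, 1082, 1033, 1991 and 2376 FPKM, and the M6 goats 1850.0, 1327, 2330.2, 1524 and 1672 FPKM. At M4 the goats fell into 3 of at most 1082 FPKM and 2 of at least 1991 FPKM, and the goats of the other stages lay between and around them. By stage it was 1469.6 ± 479 (SD, n = 5) FPKM at D1, 1443 ± 309 FPKM at M2, 1455 ± 688 FPKM at M4 and 1741 ± 382 FPKM at M6. The later stages minus D1 gave a log2 fold change of 0.066 (SE = 0.30, 95% interval -0.56 to 0.69), and M6 vs. M4 gave 0.36 (SE = 0.37, 95% interval -0.41 to 1.13, limma adjusted p = 0.867).

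SLC1A2 (gene 102172085, chromosome 15, 17002038 to 17161239) encodes the glutamate transporter GLT-1, which clears most glutamate in the forebrain. Its values at D1 were 175, 112, 92.5, 278 and 93.6 FPKM, and at M2 133, 69.0, 85.8, 167 and 189.7 FPKM. At M4 they were 221, 126, 101, 126 and 122 FPKM, and at M6 81.7, 238, 38.3, 107 and 78.4 FPKM. The highest goat was D1 replicate 4, the goat with the lowest GFAP of its stage, and M6 replicate 3 was the lowest of the 20. Stage means were 150.2 ± 79.0 (SD, n = 5) FPKM at D1, 129 ± 51.4 FPKM at M2, 139 ± 47.1 FPKM at M4 and 109 ± 76.2 FPKM at M6. On the log2 scale the later stages minus D1 gave -0.26 (SE = 0.33, 95% interval -0.96 to 0.43), and -0.0064 without D1 replicate 4. M6 vs. D1 had the smallest p, with a log2 fold change of -0.58 (SE = 0.41, 95% interval -1.43 to 0.27, limma adjusted p = 0.758).

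SLC1A3 (gene 102171550, chromosome 20, 37537309 to 37617966) encodes GLAST, the other glutamate transporter of astrocytes, which is also present in radial glia. D1 goats had 299, 145, 109, 442 and 141 FPKM and M2 goats 276, 167, 117, 349 and 305 FPKM. At M4 the values were 411, 143, 148, 168 and 188 FPKM, and at M6 142, 295, 94.2, 312 and 189 FPKM. Replicate 1 at M4 stood apart from the other 4 goats of its stage, and D1 replicate 4 was again the highest. Its means were 227 ± 141 (SD, n = 5) FPKM at D1, 243 ± 97.2 FPKM at M2, 211 ± 113 FPKM at M4 and 206 ± 94.8 FPKM at M6. The log2 fold change of the later stages vs. D1 was 0.034 (SE = 0.35, 95% interval -0.69 to 0.76), and that of M6 vs. M2 was -0.26 (SE = 0.43, 95% interval -1.15 to 0.63, limma adjusted p = 0.888).

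GLUL (gene 102191069, chromosome 16, 62094533 to 62105099) encodes glutamine synthetase, which turns the glutamate taken up into glutamine. It was 417, 635, 443, 699 and 598 FPKM at D1 and 401, 564, 482, 641 and 558 FPKM at M2. It was 585, 278, 351, 474 and 755 FPKM at M4 and 663, 986, 680.1, 319 and 578 FPKM at M6. The highest goat, M6 replicate 2, and the next to lowest, M6 replicate 4, came from the same stage. Means by stage were 558 ± 123 (SD, n = 5) FPKM at D1, 529 ± 91.0 FPKM at M2, 489 ± 189 FPKM at M4 and 645 ± 239 FPKM at M6. The later stages differed from D1 by a log2 fold change of -0.057 (SE = 0.26, 95% interval -0.59 to 0.48), and M6 vs. M4 gave 0.40 (SE = 0.31, 95% interval -0.25 to 1.06, limma adjusted p = 0.822).

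AQP4 (gene 102186073, chromosome 24, 30341480 to 30356181) encodes the water channel of astrocyte endfeet. The D1 libraries held 413, 304, 295, 259 and 319.8 FPKM and the M2 libraries 153, 349, 199.8, 202 and 266 FPKM. The M4 libraries held 89.96, 122, 309, 368 and 322 FPKM, and the M6 libraries 259, 195, 277, 348 and 221 FPKM. M4 replicates 1 and 2 were the lowest of the 20 libraries, and the other 3 goats at M4 lay within the range of D1. The stage means were 318 ± 57.4 (SD, n = 5) FPKM at D1, 234 ± 75.8 FPKM at M2, 242 ± 127 FPKM at M4 and 259.9 ± 58.5 FPKM at M6. Of the 10 genes, AQP4 had the lowest unadjusted p of any comparison, 0.101 by limma in M4 vs. D1. There the log2 fold change was -0.59 (SE = 0.34, 95% interval -1.30 to 0.13, limma adjusted p = 0.665), and it was 0.078 without M4 replicates 1 and 2. The later stages minus D1 gave -0.46 (SE = 0.28, 95% interval -1.04 to 0.12).

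GJA1 (gene 102191242, chromosome 9, 16975778 to 16988938) encodes connexin 43, the gap junction protein that couples astrocytes. It had 294, 159.9, 188, 132 and 246 FPKM at D1 and 128, 251, 140.1, 169 and 228 FPKM at M2. It had 107, 151, 179.9, 228 and 228 FPKM at M4 and 246, 154, 191, 226 and 228 FPKM at M6. M6 had the narrowest spread and D1 the widest, and the range of D1 held the M6 values. The means were 204 ± 65.7 (SD, n = 5) FPKM at D1, 183 ± 54.2 FPKM at M2, 179 ± 51.7 FPKM at M4 and 209 ± 36.7 FPKM at M6. The later stages minus D1 gave a log2 fold change of -0.083 (SE = 0.22, 95% interval -0.54 to 0.37), and M6 vs. M4 gave 0.26 (SE = 0.27, 95% interval -0.30 to 0.81, limma adjusted p = 0.867). The latter was -0.031 without M4 replicates 1 and 2, which had the lowest GJA1 of their stage (107 and 151 FPKM).

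ALDH1L1 (gene 102179144, chromosome 22, 60149958 to 60174419) encodes an enzyme of folate metabolism that is often used to label astrocytes as a class. Its values were 4.77, 5.18, 4.13, 3.00 and 5.38 FPKM at D1 and 5.58, 10.8, 10.3, 3.16 and 8.19 FPKM at M2. They were 1.32, 4.32, 5.33, 12.5 and 4.77 FPKM at M4 and 7.03, 4.93, 7.27, 5.13 and 10.8 FPKM at M6. The D1 goats were close together, while the lowest and the highest of the 20 values both came from M4. By stage the means were 4.49 ± 0.961 (SD, n = 5) FPKM at D1, 7.61 ± 3.23 FPKM at M2, 5.65 ± 4.14 FPKM at M4 and 7.04 ± 2.38 FPKM at M6. In M2 vs. D1 the log2 fold change was 0.65 (SE = 0.43, 95% interval -0.25 to 1.54, limma adjusted p = 0.474), the lowest adjusted p of the 10 genes over the 6 pairs of stages. The later stages minus D1 gave 0.43 (SE = 0.35, 95% interval -0.30 to 1.16).

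ALDOC (gene 102187622, chromosome 19, 19859544 to 19863377) encodes the aldolase of glycolysis that astrocytes use. It was 282, 239, 214, 236 and 242 FPKM at D1 and 177, 261, 235, 293 and 286 FPKM at M2. At M4 it was 141, 232, 192, 257 and 298 FPKM, and at M6 265, 219, 141, 316 and 308 FPKM. No gene of the 10 varied less, and the 5 goats at D1 differed by at most 1.32-fold. Its means were 243 ± 24.7 (SD, n = 5) FPKM at D1, 250.3 ± 46.8 FPKM at M2, 224 ± 60.3 FPKM at M4 and 249.8 ± 72.2 FPKM at M6. For the later stages minus D1 the log2 fold change was -0.046 (SE = 0.20, 95% interval -0.46 to 0.37), and M4 vs. M2 gave -0.18 (SE = 0.24, 95% interval -0.69 to 0.32, limma adjusted p = 0.839).

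SOX9 (gene 106503295, chromosome 19, 58090620 to 58096193) encodes the transcription factor that directs neural progenitors to the glial fate and stays on in adult astrocytes. Its FPKM was 22.8, 0.795, 15.2, 16.5 and 16.4 at D1 and 9.81, 22.1, 14.0, 14.9 and 17.9 at M2. It was 7.37, 9.10, 16.4, 1.35 and 17.6 at M4 and 19.5, 11.7, 13.6, 19.9 and 16.3 at M6. D1 replicate 2 and M4 replicate 4 were far below the other 18 goats, of which the lowest had 7.37 FPKM. In these same goats GFAP was 1658 and 2454 FPKM, so GFAP was not low with it. The means were 14.3 ± 8.14 (SD, n = 5) FPKM at D1, 15.7 ± 4.56 FPKM at M2, 10.4 ± 6.71 FPKM at M4 and 16.2 ± 3.58 FPKM at M6. Later stages minus D1 gave a log2 fold change of 0.36 (SE = 0.58, 95% interval -0.84 to 1.56), and without these 2 goats -0.30. M6 vs. M4 gave a log2 fold change of 1.03 (SE = 0.71, 95% interval -0.44 to 2.50, limma adjusted p = 0.795), and 0.43 without M4 replicate 4.

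None of the 10 genes passed the test between any stages. In the 6 pairwise comparisons, 0 of 10 genes were called, which took a limma adjusted p under 0.05 together with a change of 2-fold or more in either direction, and 0 of the 60 values had an unadjusted p under 0.05. The comparisons with D1 share the same 5 goats. The background over the 16771 genes tested was itself low. M4 vs. D1 had 0.0537% of genes called and M6 vs. D1 had 0.00596%, while the other 4 comparisons, M2 vs. D1 among them, had 0%. At an unadjusted p under 0.05, the shares of all genes were 15.6% (M2 vs. D1), 8.71% (M4 vs. D1), 7.41% (M6 vs. D1), 6.14% (M6 vs. M2), 8.68% (M4 vs. M2) and 6.87% (M6 vs. M4). For the later stages vs. D1, 0 of 10 genes were called and 0 had an unadjusted p under 0.05, where 0.0596% and 11.7% of all genes did. For any difference among the stages, limma's F test called 0 of 10 genes against 0.00596% of all genes, and the lowest adjusted p was 0.655. No gene of the 10 had separate ranges in any pair of stages, where the shares of all genes with separate ranges were 3.82% (M2 vs. D1), 1.93% (M4 vs. D1), 2.84% (M6 vs. D1), 0.757% (M6 vs. M2), 1.09% (M4 vs. M2) and 0.775% (M6 vs. M4).

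These intervals set what could have been seen. For ALDOC, the 95% interval of the later stages vs. D1 covers a fold change of 0.726 to 1.29, and for GJA1 of 0.689 to 1.29, so a change of 2-fold in either direction lies outside both. For GFAP the interval runs from 0.494 to 2.09, for SOX9 from 0.557 to 2.94 and for ALDH1L1 from 0.811 to 2.24. A 2-fold rise lies inside each of these. A 2-fold fall lies inside the intervals of GFAP and of AQP4 (0.487 to 1.09). A p above the threshold therefore does not show that any of the 10 genes had the same level at the stages. The median log2 fold change of the later stages vs. D1 was -0.012 over the 10 genes and -0.069 over all genes tested. The limma p-values set each difference against the spread between goats of a stage, moderated over all genes.

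**Figure D2:**
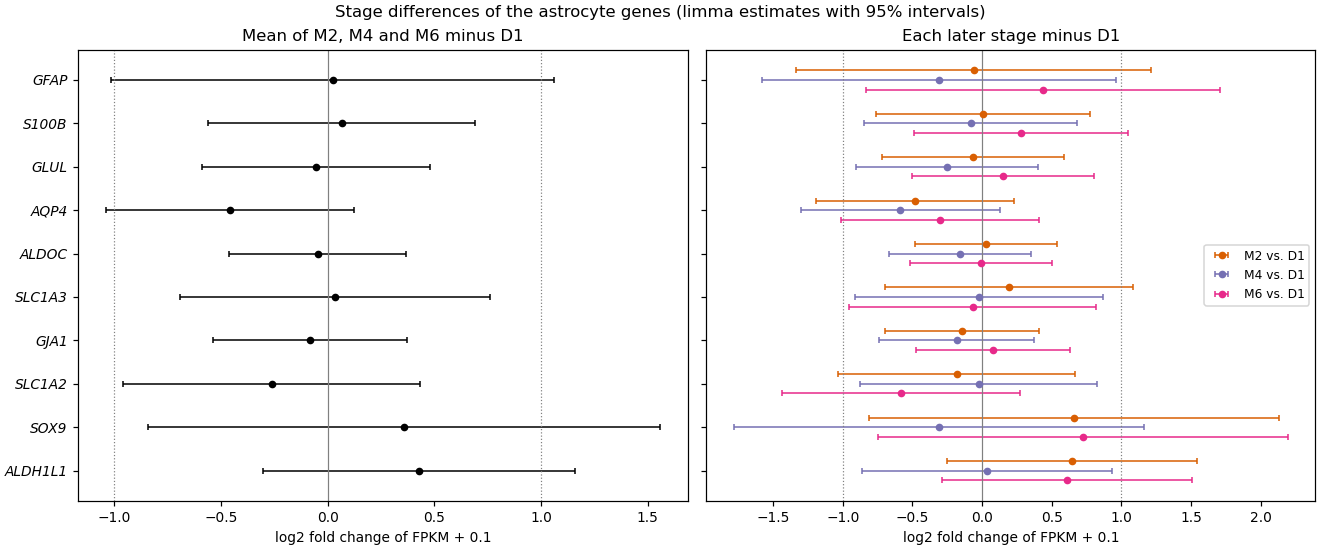
Log2 fold changes of FPKM + 0.1 (x axes) for the 10 genes (y axis), as limma estimates with 95% intervals. The left panel is the mean of M2, M4 and M6 minus D1 and the right panel each later stage minus D1, with a grey line at 0 and dotted lines at a 2-fold change. Every interval includes 0, and the narrowest in the left panel is that of ALDOC (-0.46 to 0.37) and the widest that of SOX9 (-0.84 to 1.56).

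Goats of the same stage differed more in some of these genes than in others. The SD within stages on the log2 scale was 1.24 for SOX9, 0.99 for GFAP, 0.73 for ALDH1L1, 0.72 for SLC1A3, 0.70 for SLC1A2 and 0.55 for AQP4. It was 0.46 for S100B and GLUL, 0.41 for GJA1 and 0.36 for ALDOC. The median of the 10 was 0.63, beside 0.43 for the 8419 genes with a mean of at least 5 FPKM. The stage accounted for a median of 10.3% of the variance of the 10 genes and 18.2% for all genes tested. With 4 stages of 5 goats, 15.8% is the mean share expected where no stage differs. The expected median, with which these medians would be compared, was not computed.

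The genes did not vary together as 1 set. GFAP, ALDH1L1, S100B, GJA1 and AQP4 tended to be high in the same goats, with 8 of their 10 pairs past the test. These genes were grouped by the same correlations, so this count is a description. AQP4 with ALDH1L1 (r = 0.50) and AQP4 with S100B (r = 0.49) did not pass. Without M4 replicates 1 and 2, the libraries farthest from the median of AQP4, these r were 0.08 and 0.16. SLC1A2 and SLC1A3 were high in goats where GFAP was low. Of the 45 pairs of genes, 14 passed an adjusted p of 0.05 for Pearson's r over the 20 libraries, of which 10 were positive and 4 negative. The points share the scaling of each library and its tissue composition. Among all pairs of the 8419 genes with a mean of at least 5 FPKM, 3.22% had an r of at least 0.7 and 1.03% an r of -0.7 or less. Among the 45 pairs of astrocyte genes these shares were 11.1% and 4.44%, or 5 and 2 pairs.

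The strongest positive pair was that of both glutamate transporters. SLC1A2 and SLC1A3 had r = 0.83 (permutation p = 1e-05, adjusted p = 0.00045) and rho = 0.76 (permutation p = 0.00021, adjusted p = 0.00337) on the log2 scale, the smallest raw p that the permutations can give being 1e-05. Without the 2 libraries farthest from the median of SLC1A2 r was 0.76. SLC1A3 was higher than SLC1A2 in each library, from 1.13-fold in M4 replicate 2 to 2.92-fold in M6 replicate 4. In the ranking of 16770 genes by r with SLC1A2, SLC1A3 was at place 22, and GFAP was at place 9 from the lowest r. By r with GFAP, ALDH1L1 was at place 153, S100B at 349 and GJA1 at 495. From the lowest r with GFAP, SLC1A2 was at place 243 and SLC1A3 at 442. Many other genes thus followed GFAP more closely than these did. By r with GJA1, AQP4 was at place 8, and by r with AQP4, GJA1 was at place 28.

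GFAP and ALDH1L1 had r = 0.79 (permutation p = 3e-05, adjusted p = 0.00045) and rho = 0.75 (permutation p = 0.00027, adjusted p = 0.00337), and r = 0.60 without the 2 farthest libraries. GFAP and S100B had r = 0.74 (permutation p = 0.00016, adjusted p = 0.00144) and rho = 0.73 (permutation p = 0.0003, adjusted p = 0.00337), and 0.58 without those 2. AQP4 and GJA1, the channel genes, had r = 0.78 (permutation p = 3e-05, adjusted p = 0.00045) and rho = 0.73 (permutation p = 0.00041, adjusted p = 0.00369), with r = 0.72 after the same step. GJA1 also varied with GFAP, at r = 0.70 (permutation p = 0.00048, adjusted p = 0.00309) and rho = 0.64 (permutation p = 0.00264, adjusted p = 0.0164), and r = 0.50 remained without the 2 farthest libraries. GJA1 and ALDOC had r = 0.62 (permutation p = 0.00323, adjusted p = 0.0182) and rho = 0.64 (permutation p = 0.00292, adjusted p = 0.0164), and r = 0.47 without 2 libraries. The other 4 positive pairs, GFAP with AQP4 and ALDH1L1, GJA1 and S100B among themselves, had r from 0.54 to 0.61, and rho passed for ALDH1L1 with S100B but not for the other 3.

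Against these stood the glutamate transporters. GFAP and SLC1A2 had r = -0.75 (permutation p = 0.00012, adjusted p = 0.00135) and rho = -0.75 (permutation p = 0.00019, adjusted p = 0.00337), and without the 2 farthest libraries, D1 replicate 4 and M4 replicate 1, r was -0.65. With the stage means subtracted it was -0.74. GFAP and SLC1A3 had r = -0.70 (permutation p = 0.00046, adjusted p = 0.00309) and rho = -0.63 (permutation p = 0.004, adjusted p = 0.02), and r was -0.52 without the same libraries. S100B and SLC1A2 had r = -0.60 (permutation p = 0.00417, adjusted p = 0.0194) and rho = -0.53 (permutation p = 0.0182, adjusted p = 0.0584), so that only r passed, and r was -0.46 without 2 libraries. ALDH1L1 and SLC1A2 had r = -0.57 (permutation p = 0.0094, adjusted p = 0.0352) and rho = -0.57 (permutation p = 0.00995, adjusted p = 0.0373), with -0.59 without 2 libraries. The ratio of GFAP to SLC1A2 ran from 1.34 in M4 replicate 1 and 1.37 in D1 replicate 4 to 64.4 in M6 replicate 3. It was under 10 in M2 replicates 1, 4 and 5, M4 replicates 1 and 2, M6 replicate 2 and D1 replicate 4, so that low ratios occurred at each stage.

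The number of pairs past the threshold rested in part on 1 library. Without M4 replicate 1, which had the lowest GFAP, AQP4, ALDH1L1, GJA1 and S100B of the 20, 7 pairs passed in place of 14. With the 2 libraries farthest from the median of 1 gene left out of each pair, 3 pairs passed. That gene was the earlier of the pair in the order of the opening paragraph. Far libraries of the other gene could therefore stay in. With the stage means subtracted, 16 did.

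GLUL and SOX9 stood outside this pattern by Pearson's r. The r of GLUL with the other 9 genes ran from -0.05 to 0.25, and none of these 9 pairs passed. SOX9 reached at most 0.27, with GJA1. SOX9 and GJA1 had r = 0.27 (permutation p = 0.25, adjusted p = 0.468) and rho = 0.68 (permutation p = 0.00158, adjusted p = 0.0118), and SOX9 and ALDOC had r = 0.17 (permutation p = 0.489, adjusted p = 0.759) and rho = 0.57 (permutation p = 0.00984, adjusted p = 0.0373). For these pairs rho passed the threshold and r did not. Both r include D1 replicate 2 and M4 replicate 4, where SOX9 had 0.795 and 1.35 FPKM. They were not computed without both of these libraries.

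**Figure D3:**
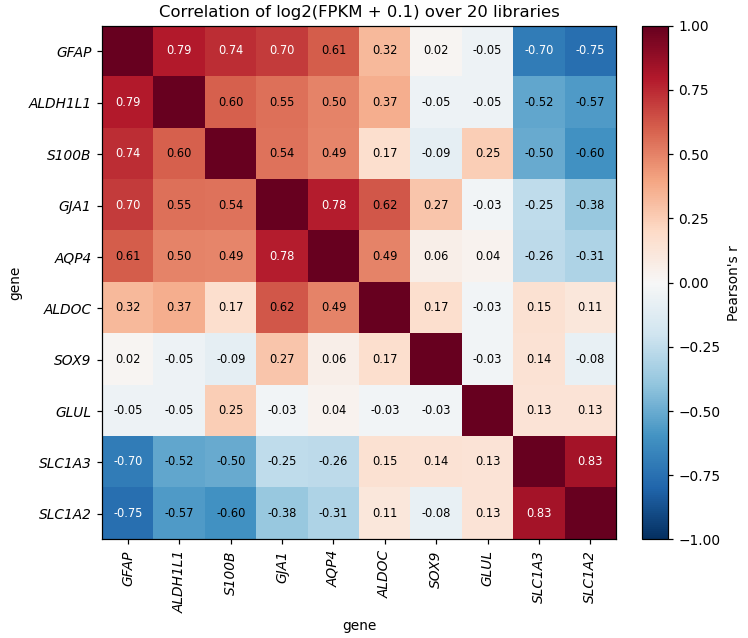
Pearson's r of log2(FPKM + 0.1) over the 20 libraries for each pair of the 10 genes (both axes), with red for positive and blue for negative values. The block at the upper left holds GFAP, ALDH1L1, S100B, GJA1 and AQP4 with r from 0.49 to 0.79, and SLC1A2 and SLC1A3 at the lower right have an r of 0.83 with each other and of -0.75 and -0.70 with GFAP.

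**Figure D4:**
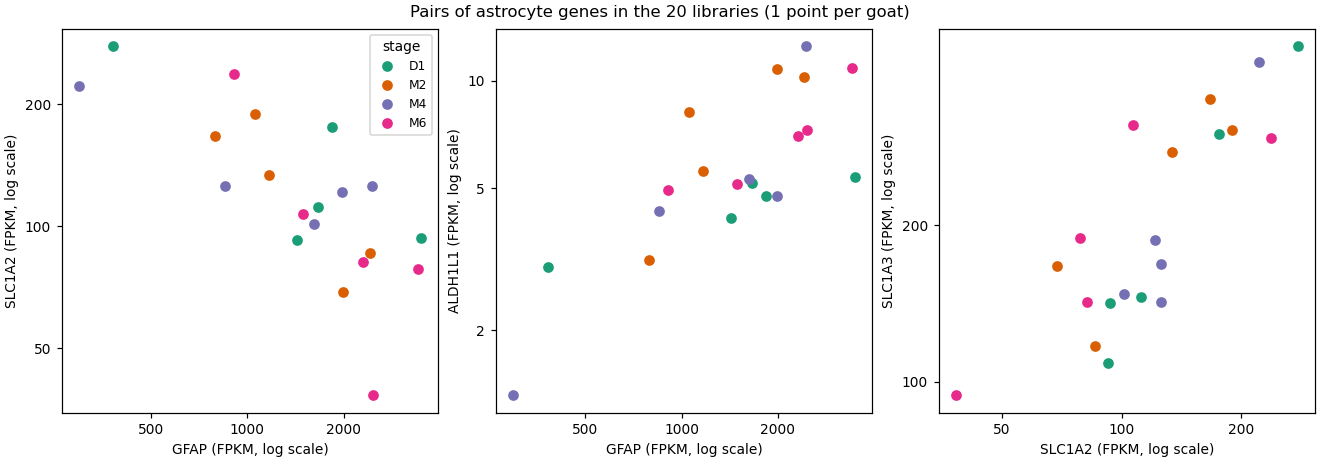
FPKM of GFAP against SLC1A2 (left), GFAP against ALDH1L1 (middle) and SLC1A2 against SLC1A3 (right), with log scales on both axes and 1 point per goat coloured by stage. SLC1A2 is lower in goats with more GFAP, with r = -0.75, and the colours of the 4 stages are mixed along each relation.

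Markers of other cells moved with several of the 10 genes from goat to goat. The FPKM of each of 11 marker lists was summed and the sum compared on the log2 scale, which gave 110 relations, of which 18 passed an adjusted p of 0.05 for r. These were 5 with oligodendrocytes, 2 with their progenitors, 2 with neurons, 1 with microglia, 1 with cortex and thalamus and 7 with the tanycyte list. How often other genes have such a relation was not computed, so the 18 are a description and not a trait of these 10 genes. The 10 markers of oligodendrocytes, the myelin-forming cells, summed to between 502 and 16308 FPKM. By stage their sums ran from 1082 to 16171 FPKM at D1, from 2328 to 7900.0 at M2, from 502 to 10142 at M4 and from 753 to 16308 at M6. Over these 10 markers the median log2 fold change of the later stages vs. D1 was -0.96, with 0 called and a lowest adjusted p of 0.463 by limma. The 11 neuron markers summed to between 99.7 FPKM, in M6 replicate 3, and 2871 FPKM, in M4 replicate 1.

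GFAP was higher in goats with more oligodendrocyte RNA, at r = 0.75 (permutation p = 0.00026, adjusted p = 0.00715) and rho = 0.64 (permutation p = 0.00306, adjusted p = 0.0421), and r was 0.75 without the 2 farthest libraries. For the marker lists, these were the libraries farthest from the median of the list's sum. For AQP4 the same list gave r = 0.63 (permutation p = 0.00337, adjusted p = 0.0337) and rho = 0.56 (permutation p = 0.0121, adjusted p = 0.0833), with r = 0.69 without 2 libraries. GJA1 gave r = 0.58 (permutation p = 0.00736, adjusted p = 0.0476) and rho = 0.59 (permutation p = 0.00721, adjusted p = 0.0632), with r = 0.62 without 2. S100B gave r = 0.60 (permutation p = 0.00522, adjusted p = 0.0383) and rho = 0.54 (permutation p = 0.014, adjusted p = 0.0856), with r = 0.56 without 2. For these 3 genes r passed and rho did not. SLC1A3 moved the other way, at r = -0.66 (permutation p = 0.0017, adjusted p = 0.0286) and rho = -0.67 (permutation p = 0.00164, adjusted p = 0.027), and r was -0.55 without 2 libraries. SLC1A2 varied with the neuron markers, at r = 0.62 (permutation p = 0.00439, adjusted p = 0.0371) and rho = 0.52 (permutation p = 0.0193, adjusted p = 0.106), with r = 0.54 without 2 libraries. For GFAP and the neuron markers rho passed and r did not, at r = -0.46 (permutation p = 0.0427, adjusted p = 0.172) and rho = -0.71 (permutation p = 0.00083, adjusted p = 0.0183). Without the 2 libraries farthest from the median of the neuron sum r was -0.79. What part the share of white matter or of neurons had in the relations among the 10 genes was not tested.

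ALDH1L1 varied with the 10 microglia markers, at r = 0.65 (permutation p = 0.00285, adjusted p = 0.0313) and rho = 0.67 (permutation p = 0.00172, adjusted p = 0.027), and r was 0.57 without 2 libraries. GLUL was lower where the markers of cortex and thalamus were higher, at r = -0.61 (permutation p = 0.00424, adjusted p = 0.0371) and rho = -0.74 (permutation p = 0.00025, adjusted p = 0.00917), and -0.62 without 2 libraries. GFAP and the 5 markers listed for tanycytes had r = -0.86 (permutation p = 1e-05, adjusted p = 0.0011) and rho = -0.82 (permutation p = 2e-05, adjusted p = 0.0022), with r = -0.76 without 2 libraries. This list does not stand for tanycytes here. RAX and GPR50, which define them, reached at most 0.129 and 0.0194 FPKM, and 70.9% of the summed value over the 20 libraries was CRYM, a gene that neurons also transcribe.

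**Figure D5:**
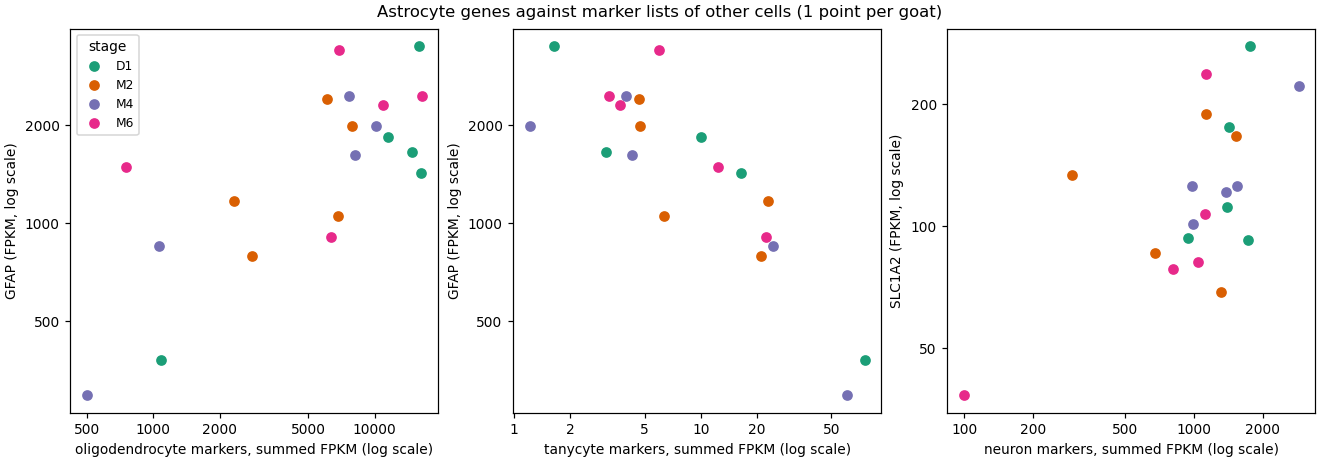
GFAP against the summed FPKM of the oligodendrocyte markers (left) and of the tanycyte list (middle), and SLC1A2 against the neuron markers (right), with log scales on both axes and 1 point per goat coloured by stage. GFAP is higher with the oligodendrocyte sum (r = 0.75) and lower with the tanycyte list (r = -0.86), and M6 replicate 3 is the single goat at the lower left of the right panel.

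Other genes listed for astrocytes were taken from 9 lists set by function, with 114 genes tested. As for the 10 genes, limma called 0 in any of the comparisons. Among the genes of glial filaments and radial glia, 5 of 10 had an unadjusted limma p under 0.05 in the later stages vs. D1, all lower, where 11.7% of all genes tested had such a p in either direction. The list's median log2 fold change was -0.31, beside -0.069 over all genes. VIM, the filament gene of immature astrocytes and radial glia, which is also strong in vessel and ependymal cells, had 126 ± 57.0 FPKM at D1, 65.1 ± 39.7 FPKM at M2, 54.7 ± 16.6 FPKM at M4 and 74.7 ± 17.2 FPKM at M6. Its log2 fold change was -0.97 (SE = 0.27, 95% interval -1.53 to -0.41, limma adjusted p = 0.174). DIO2, the deiodinase that makes active thyroid hormone in tanycytes and astrocytes, had 9.83 ± 6.24 FPKM at D1, 6.50 ± 3.05 FPKM at M2, 5.06 ± 3.09 FPKM at M4 and 3.07 ± 3.08 FPKM at M6, with an adjusted p of 0.385 by limma.

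The remaining lists had at most 2 genes with an unadjusted p under 0.05 in the later stages vs. D1. In glutamate and GABA handling (12 genes, median log2 fold change -0.086) it was GRM3, a glutamate receptor of astrocytes, with 20.4 ± 14.7 FPKM at D1, 31.4 ± 3.46 FPKM at M2, 35.8 ± 13.3 FPKM at M4 and 36.8 ± 16.04 FPKM at M6 (limma adjusted p = 0.266). GPT2, a transaminase of glutamate, had the next smallest p for any stage and a log2 fold change of -0.048. In water, potassium and pH homeostasis (10 genes, median 0.11) it was DTNA, a part of the complex that anchors AQP4, with 56.0 ± 9.45 FPKM at D1, 76.2 ± 20.8 FPKM at M2, 76.6 ± 10.97 FPKM at M4 and 68.5 ± 7.61 FPKM at M6 (limma adjusted p = 0.318). KCNJ16, a potassium channel of the same list, had 6.22 ± 2.04 FPKM at D1, 8.18 ± 2.49 FPKM at M2, 8.27 ± 2.23 FPKM at M4 and 5.06 ± 2.69 FPKM at M6. None of these passed the test.

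In gap junction and adhesion (7 genes, median 0.019) LGI4, a secreted glial protein, had 3.56 ± 1.28 FPKM at D1, 4.22 ± 1.67 FPKM at M2, 4.66 ± 0.719 FPKM at M4 and 6.71 ± 1.89 FPKM at M6 (limma adjusted p = 0.375), and NCAN, the proteoglycan neurocan, had 24.5 ± 4.54 FPKM at D1, 22.6 ± 7.99 FPKM at M2, 21.4 ± 3.95 FPKM at M4 and 14.7 ± 4.00 FPKM at M6. The list of gliogenic transcription factors (14 genes, median 0.0018) held ZBTB20, with 39.6 ± 9.999 FPKM at D1, 59.1 ± 14.5 FPKM at M2, 55.5 ± 31.1 FPKM at M4 and 68.9 ± 10.4 FPKM at M6 (limma adjusted p = 0.4). ID1, an inhibitor of differentiation factors, had 31.2 ± 9.94 FPKM at D1, 32.5 ± 5.54 FPKM at M2, 17.0 ± 4.56 FPKM at M4 and 22.5 ± 5.93 FPKM at M6, with an any-stage adjusted p of 0.281 by limma. The means of ID1 at M4 and M6 were under those at D1 and M2, without passing the test. In energy metabolism (14 genes, median -0.19) ACSL3, which activates fatty acids, had 92.0 ± 12.8 FPKM at D1, 65.4 ± 23.8 FPKM at M2, 79.5 ± 14.1 FPKM at M4 and 69.0 ± 9.28 FPKM at M6, and GBE1, the glycogen branching enzyme, had 21.7 ± 5.38 FPKM at D1, 14.9 ± 4.70 FPKM at M2, 25.0 ± 10.1 FPKM at M4 and 18.5 ± 4.07 FPKM at M6.

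Among secreted and synapse-shaping factors (11 genes, median -0.14) CPE, a peptide-processing enzyme that neurons also make, had 379 ± 96.4 FPKM at D1, 258 ± 63.0 FPKM at M2, 324 ± 87.7 FPKM at M4 and 258 ± 52.3 FPKM at M6, and MERTK, a phagocytic receptor, had 8.01 ± 2.05 FPKM at D1, 13.2 ± 4.60 FPKM at M2, 7.57 ± 2.55 FPKM at M4 and 8.62 ± 1.76 FPKM at M6. In the list of reactive astrocyte genes (12 tested, median 0.15) 0 had an unadjusted p under 0.05 in the later stages vs. D1. CD44, a receptor for hyaluronan, had 6.85 ± 2.86 FPKM at D1, 3.02 ± 1.42 FPKM at M2, 3.65 ± 3.19 FPKM at M4 and 6.92 ± 2.88 FPKM at M6, and CHI3L1, a secreted glycoprotein, had 16.3 ± 5.26 FPKM at D1, 23.8 ± 10.9 FPKM at M2, 17.1 ± 7.46 FPKM at M4 and 28.8 ± 6.73 FPKM at M6. The last list held 24 further genes listed for astrocytes (median 0.17). Among them was ATP13A5, a gene of a P-type ATPase, with 0.715 ± 0.188 FPKM at D1, 3.87 ± 1.99 FPKM at M2, 0.559 ± 0.225 FPKM at M4 and 0.472 ± 0.544 FPKM at M6. Which cells transcribe it cannot be told from bulk tissue. Its any-stage adjusted p of 0.108 by limma was the lowest of the 114 genes and did not pass. CHST9, a sulfotransferase, had 1.37 ± 0.62 FPKM at D1, 1.47 ± 0.54 FPKM at M2, 2.20 ± 1.52 FPKM at M4 and 4.05 ± 1.204 FPKM at M6.

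The gene outside the 10 that was most like each of them over the 20 libraries was found by Pearson's r on the log2 scale, among all genes tested and with no p, since it was chosen as the highest. For GFAP it was LOC106503269 (r = 0.96, rho = 0.96, 0.93 without the 2 libraries farthest from the median, mean 97.0 FPKM). That locus shares 1184 bases with GFAP on chromosome 19 (44246867 to 44250614), and reads of both may not be separable. For ALDH1L1 it was CD81 (r = 0.90, rho = 0.86, 0.83 without the 2 libraries farthest from the median, mean 74.4 FPKM), a tetraspanin. For S100B it was LOC102168547 (r = 0.89, rho = 0.88, 0.91 without the 2 libraries farthest from the median, mean 127 FPKM), a locus without a name.

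SLC1A2 was most like SYT16 (r = 0.92, rho = 0.92, 0.87 without the 2 libraries farthest from the median, mean 17.0 FPKM), a synaptotagmin. SLC1A3 was most like GRIA2 (r = 0.89, rho = 0.86, 0.85 without the 2 libraries farthest from the median, mean 78.7 FPKM), the AMPA receptor subunit of glutamate synapses. AQP4 was most like CD109 (r = 0.84, rho = 0.77, 0.66 without the 2 libraries farthest from the median, mean 8.67 FPKM), and GJA1 most like PRPSAP1 (r = 0.83, rho = 0.80, 0.75 without the 2 libraries farthest from the median, mean 17.4 FPKM). GLUL was most like PPP1R3C (r = 0.86, rho = 0.82, 0.81 without the 2 libraries farthest from the median, mean 28.8 FPKM), a regulator of glycogen, and ALDOC most like LOC102172380 (r = 0.87, rho = 0.86, 0.85 without the 2 libraries farthest from the median, mean 28.7 FPKM). For SOX9, LOC102179130 (r = 0.72, rho = 0.31, 0.34 without the 2 libraries farthest from the median, mean 1.23 FPKM) had the highest r. The mean of the 10 genes, each standardised, was most like PLOD2, DHX58, TLL1, TACR3 and EMP2, with r from 0.81 to 0.83 and, without the 2 farthest libraries, from 0.56 to 0.74.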

How the data were processed

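The 20 libraries were strand-specific and depleted of rRNA, with 1 library per goat. After trimming with fastp, the authors aligned reads to the goat genome ARS1.2 in HISAT2 (2.0.5) and quantified genes in StringTie (1.3.3b), and the deposited values are FPKM per gene, which carry no read counts. Gene identifiers were matched to the RefSeq annotation of ARS1.2 (20610 of 21071). The 16771 genes that reached 0.1 FPKM in 5 or more libraries were fitted on log2(FPKM + 0.1) with limma 3.58.1 in R 4.3.3, with 4 stages as groups, a variance trend and no block. The study states no test for gene FPKM, so its thresholds for lncRNAs were kept. Fold changes on this scale understate changes of low genes. Benjamini-Hochberg adjustment took in all genes tested of a comparison. The fit was tested on simulated data. Correlations used 100000 permutations, two-sided, in Python 3.11.15 (numpy 2.4.6, scipy 1.17.1, pandas 2.3.3, matplotlib 3.10.9).

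The members, the 9 related lists and the 11 marker lists were chosen with earlier results of these data known. Of 217 listed symbols other than the 10 genes, 14 had no value to use. Named genes are the 10, the 2 genes with the smallest any-stage p in each related list, and the genes most alike by r. Marker lists are given as sums. The single marker genes named and 5 genes of the closing section fall outside this rule and were chosen after their values were seen. The alternatives were other pseudocounts, filters and normalizations, no trend, a fit of the stages compared alone, library weights, the mapping rate as a covariate, the replicate number as a block and leaving out libraries. Leaving out pairs of libraries was chosen after seeing the data. The values of 1 marker gene are not reported here.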

Additional observations from a re-analysis of the deposited data

Results flagged for a closer look

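In 40 groups of 5 libraries (10 genes at 4 stages), the gap of the highest or the lowest library to its neighbour was compared with Dixon's critical value of 0.71. Chance alone flags about 1 in 20 groups, which is 2 of 40, and 2 were found. Both were M4 replicate 1. SLC1A2 had 221.5 FPKM there, and the other 4 goats at M4 had 101.5 to 125.9 FPKM. SLC1A3 had 411 FPKM there, and the other 4 had 142.5 to 188 FPKM. The same library had the highest neuron marker sum of the 20 (2871 FPKM) and the lowest oligodendrocyte marker sum (502 FPKM), and the part of either in these levels was not tested.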

How the results depend on the processing

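The 8 counts of how many of the 10 genes were called were recomputed under 20 alternatives that leave out 1 library and 16 others, which gave 285 counts, and 0 of them were above 0. The lowest adjusted p of any of the 10 genes in any alternative was 0.225 by limma. Of 690 alternative log2 fold changes, 633 kept their direction, 57 turned it and 0 passed the threshold. The 633 include values that could not change. The filters, no trend, the replicate block alone and the fit of the stages compared alone leave these estimates as they are. So does leaving out a library of a stage outside the comparison. The 633 therefore do not measure how stable a direction is. The turned values of the later stages vs. D1 were, with quantile normalization, -0.075 for GFAP, 0.17 for GJA1, 0.11 for GLUL and 0.20 for ALDOC, and with median-ratio scaling 0.0050 for ALDOC. With library quality weights they were -0.16 for GFAP, 0.0033 for SLC1A2, 0.12 for GLUL and 0.071 for ALDOC. With the mapping rate as a covariate they were -0.38 for GFAP, 0.16 for SLC1A2, 0.067 for GJA1, -0.044 for S100B, 0.064 for GLUL and 0.28 for ALDOC. Without M2 replicate 3 and M6 replicate 3 they were -0.076 for GFAP and 0.024 for ALDOC. Without D1 replicate 2 and M4 replicate 4 they were -0.013 for GFAP, -0.058 for SLC1A3 and -0.30 for SOX9. Without M4 replicates 1 and 2 they were -0.037 for SLC1A3, 0.014 for GJA1 and 0.012 for ALDOC, and in single pairs of stages 0.078 for AQP4 in M4 vs. D1, -0.050 for GFAP in M6 vs. M4 and -0.031 for GJA1 in M6 vs. M4. The cause was not tested. Leaving out 1 library at a time, the values ran from -0.45 to 0.35 for GFAP, -0.40 to -0.0064 for SLC1A2, -0.18 to 0.33 for SLC1A3, -0.23 to 0.064 for GJA1, -0.062 to 0.23 for S100B, -0.16 to 0.031 for GLUL, -0.089 to 0.018 for ALDOC and -0.50 to 0.67 for SOX9. In M6 vs. M4 they ran from 0.26 (without M4 replicate 1) to 1.02 for GFAP, 0.090 (without M4 replicate 1) to 0.36 for GJA1, 0.22 (without M4 replicate 2) to 0.63 for GLUL, 0.17 (without M4 replicate 1) to 0.57 for S100B and 0.43 (without M4 replicate 4) to 1.33 for SOX9. They ran from -0.79 to -0.28 (without M4 replicate 1) for AQP4 in M4 vs. D1, -0.30 to -0.029 (without M4 replicate 1) for ALDOC in M4 vs. M2, -0.93 to -0.27 (without M6 replicate 3) for SLC1A2 in M6 vs. D1 and -0.50 to -0.013 (without M6 replicate 3) for SLC1A3 in M6 vs. M2.

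Same-numbered libraries of different stages had r of deviations from -0.246 to 0.43, over 0.1 in 7 of 30 pairs. For replicate 4 it was 0.43 (D1 and M2), 0.28 (D1 and M6) and 0.17 (M2 and M6). Its pairs with M4 were negative, at -0.246 (D1), -0.186 (M2) and -0.176 (M6). No meaning of the replicate number is stated, and whether it marks a shared litter or batch was not tested. With the replicate block, limma called 0 of the 10 genes. Each stage holds each replicate number once, so the block alone cannot change a fold change. The log2 fold change of GFAP in the later stages vs. D1 was thus again 0.023. With the block and the mapping rate together it was -0.63 for GFAP, -0.058 for ALDH1L1, -0.37 for S100B and 0.12 for ALDOC.

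The 14 pairs of genes past the threshold became 10 on raw FPKM, 15 after median-ratio scaling, 16 with stage means subtracted and 3 without the 2 libraries farthest from the median of the earlier gene, and 7 to 18 with 1 library left out. The count of all genes called in the later stages vs. D1 was 10, and it ran from 0 with the mapping rate as a covariate to 223 with library quality weights. With 5 goats a stage, a 2-fold rise of GFAP, SOX9 or ALDH1L1 in the later stages vs. D1 lies inside the intervals. The same holds for a 2-fold fall of GFAP or AQP4.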

Other observations

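The genes of the 9 related lists were also set beside GFAP and SLC1A2. These 2 genes have a negative r with each other, so a gene tends to have a higher r with one of them, and the counts are a description. Of the 114 genes of the 9 related lists, 68 had a higher r with GFAP than with SLC1A2 over the 20 libraries, and of all other genes tested 48.0% did. In the list of reactive astrocyte genes it was 12 of 12 genes, with a median r of 0.53 with GFAP and -0.40 with SLC1A2. In glutamate and GABA handling it was 4 of 12, with medians of -0.06 and 0.30. The counts of the other 7 lists were 7 of 10 for water, potassium and pH homeostasis, 4 of 7 for gap junction and adhesion, 6 of 10 for glial filaments and radial glia, 8 of 14 for gliogenic transcription factors, 6 of 14 for energy metabolism, 5 of 11 for secreted and synapse-shaping factors and 16 of 24 for the further astrocyte genes. The following genes were chosen after their values were seen, and their r is a description with no p. With GFAP, SPARC, a secreted matrix protein that vessel cells also make, had r = 0.91 and rho = 0.78, and 0.79 without the 2 libraries farthest from the median of GFAP. KCNJ10, the inward-rectifier potassium channel of astrocytes, had r = 0.84 and rho = 0.75, and 0.69 without these libraries. S1PR3, a receptor for sphingosine 1-phosphate, had r = 0.83 and rho = 0.84, and 0.80 without them. GRM5, a glutamate receptor that neurons also transcribe, had r = 0.88 and rho = 0.82 with SLC1A2, and 0.75 without 2 libraries, and its r with GFAP was -0.80. SLCO1C1, a thyroid hormone transporter of astrocytes and brain vessels, had r = 0.78 and rho = 0.75 with SLC1A2, and 0.73 without 2 libraries. These points share library scaling and tissue composition, and the part of either was not tested.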
